A study of Mus musculus with 4 samples.

Results

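The genes described here are 10 surface and intracellular markers that separate B1, marginal zone, follicular and transitional B cells: *Cd5*, *Spn*, *Bhlhe41*, *Cd9*, *Cr2*, *Cd1d1*, *Mzb1*, *Fcer2a*, *Cd24a* and *Cd93*. They were taken by symbol from the 55401 genes listed for each library, each symbol had 1 row, and the rule reads symbols only. RNA-seq covered splenic B220+ B cells in 4 libraries. The 2 NSD1 B WT libraries came from Mb1-Cre+ NSD1+/+ mice and the 2 NSD1 B KO libraries from Mb1-Cre+ NSD1fl/fl mice. All of these mice therefore carried Mb1-Cre, which is driven by *Cd79a* and acts in the B lineage, and all were on the C57BL/6J background. The alleles differ in whether internal exons of *Nsd1*, the gene of a histone H3 lysine 36 methyltransferase, are flanked by loxP sites. The controls were littermates, the methods describe adult mice of both sexes without tying either to a library, and the sources used here do not say how many mice went into a library. If the libraries of a genotype came from 1 preparation, the p-values measure only technical spread.

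B1 cells are innate-like B cells that make natural antibody. B1a cells carry CD5, and B1 cells of the body cavities carry CD43, the product of *Spn*. The B2 lineage passes from the bone marrow to the spleen as transitional cells, which carry CD93 and much CD24, and matures into follicular cells, which carry CD23 (*Fcer2a*) and moderate CD21 (*Cr2*), or into marginal zone cells, which carry much CD21 and CD1d (*Cd1d1*) and little CD23. Surface staining of this kind is how such subsets are counted, and the comparison here asks what the transcripts of these markers did in the sorted B220+ pool as a whole. In such a pool, fewer cells of a subset and less RNA per cell cannot be told apart.

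Counts on genes lay between 6769118 and 7566834 per library. *Nsd1*, the targeted gene, was counted 497 and 480 times in the controls and 284 and 280 times in the knockouts. Its gene-level count was thus lower but far from absent under the labels as given. That count covers the whole gene, while the loxP sites flank only internal exons, so it does not measure the loss of those exons. The paper reported lower *Nsd1* in the knockouts by Q-PCR. Values below are CPM, counts scaled to a common library size after TMM normalization, and a gene was taken as past the threshold at an adjusted p below 0.05 with a fold change above 1.2. Of the 11657 genes tested with edgeR, 78.2% were past it, 37.1% higher and 41.1% lower in NSD1 B KO, and the CPM of the genotypes did not overlap for 88.1%. No count was found in either NSD1 B WT library for 7.63% of the tested genes, nor in either NSD1 B KO library for 11.3%.

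All 10 markers were tested. *Cd5* and *Cd93* were higher in NSD1 B KO, *Spn*, *Bhlhe41*, *Cd9*, *Cr2*, *Cd1d1*, *Fcer2a* and *Cd24a* were lower, and *Mzb1* was not past the threshold. Both the 9 of 10 markers past the threshold and the 9 of 10 without overlap stand beside shares nearly as high among all genes, 78.2% and 88.1%, so the number of changed markers is not a result about them. The median log2 fold change of the 10 was -0.94, against -0.10 over all tested genes, and both medians were the same with genes at 0 set to the bound of their change. Among the 6 markers with counts in every library the median absolute log2 fold change was 0.94, against 0.79 for tested genes counted in every library. A total of 4 markers had 0 counts in both libraries of a genotype, *Cd5* and *Cd93* in NSD1 B WT and *Cd1d1* and *Fcer2a* in NSD1 B KO.

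**Figure D1:**
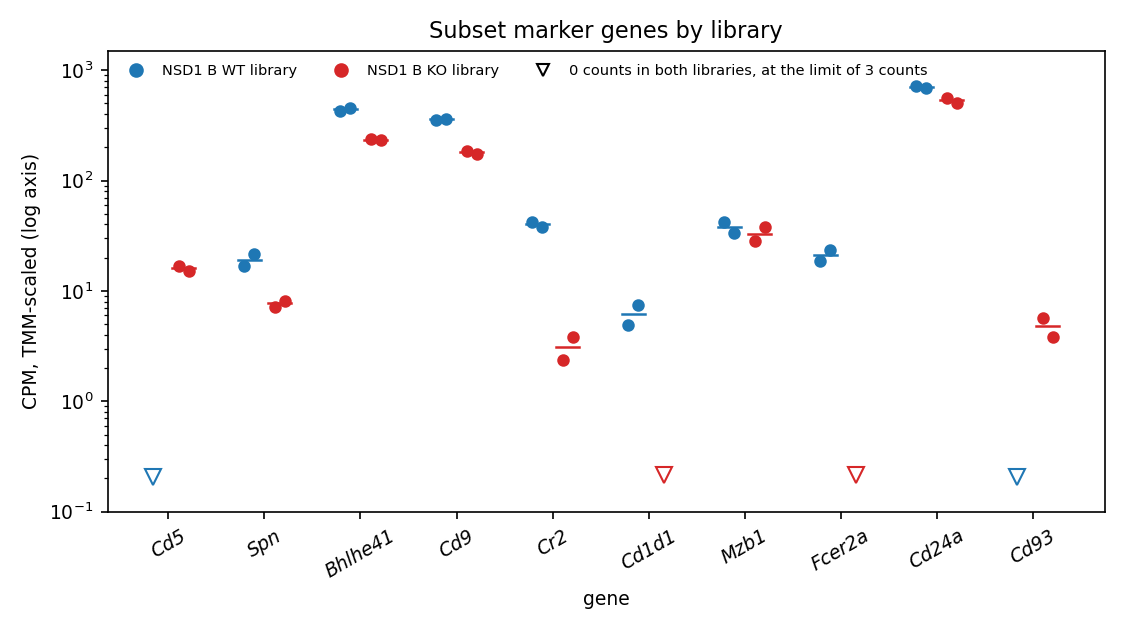
TMM-scaled CPM (log axis) of the 10 marker genes, 1 point per library with the mean of the 2 libraries of a genotype as a line, and open triangles where both libraries had 0 counts, drawn at the limit of 3 counts over the genotype (0.2075 CPM for NSD1 B WT, 0.2155 CPM for NSD1 B KO). The points of the genotypes overlap for *Mzb1* alone, and the 4 triangles belong to *Cd5*, *Cd1d1*, *Fcer2a* and *Cd93*.

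Among the B1 markers, *Cd5* stood apart from the other 3 in direction. *Cd5* encodes a scavenger receptor family protein that dampens antigen receptor signals in B1a cells and is also carried by T cells. The gene spans chr19:10717116-10739002 on the minus strand of GRCm38 (the build of all positions given), with 11 exons in its principal transcript. It was not counted in either NSD1 B WT library and had 120 and 103 counts in NSD1 B KO, or 16.7 and 15.3 CPM. Both NSD1 B KO libraries were thus above both NSD1 B WT libraries, and the gene was at least 77.2-fold higher against the limit of 3 counts over the genotype at 0, a limit that covers counting error only. No stretch of 100 bases of its annotated transcripts occurs in a transcript of another gene.

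*Spn* encodes CD43, a sialomucin found on B1 cells, T cells and myeloid cells and lost from most splenic B2 cells. Its position is chr7:127132232-127137823, minus strand. The NSD1 B WT libraries held 121 and 158 counts and the NSD1 B KO libraries 52 and 55, which is 19.3 ± 3.31 against 7.70 ± 0.671 CPM (mean ± SD, n = 2). Both NSD1 B KO libraries were below both NSD1 B WT libraries, and *Spn* in NSD1 B KO stood at 40.0% of its NSD1 B WT level. Its log2 fold change was -1.32 (SE 0.22, edgeR quasi-likelihood adjusted p = 6.51e-07).

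*Bhlhe41* encodes a basic helix-loop-helix repressor that B1a cells need for their maintenance. Its position is chr6:145858243-145865558, minus strand. Counts were 3076 and 3300 for NSD1 B WT against 1714 and 1566 for NSD1 B KO. Scaled, this is 441 ± 14.8 against 235 ± 3.83 CPM (mean ± SD, n = 2). The gap between genotypes was many times the spread within each, with a log2 fold change of -0.90 (SE 0.08, adjusted p = 2.05e-14 by edgeR). A gene model on the opposite strand, Gm43909, shares 1280 of the 6720 bp of *Bhlhe41* exons. It had 47 to 69 counts per library and was not past the threshold. The strand setting of the counting is not given in the sources used here, so reads in the shared part cannot be assigned to a strand. Its paralog *Bhlhe40*, a related repressor, had 117 and 135 counts against 0 and 5 (log2 fold change -5.53, SE 0.45, adjusted p = 1.21e-15 by edgeR).

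*Cd9* encodes a tetraspanin that marks both B1 and marginal zone cells, and platelets and plasma cells as well. Its position is chr6:125460266-125494791, minus strand. Counts were 2554 and 2617 for NSD1 B WT against 1343 and 1181 for NSD1 B KO, that is 358 ± 0.406 against 181 ± 7.84 CPM (mean ± SD, n = 2). NSD1 B KO stood at 50.6% of NSD1 B WT, with no overlap between libraries (log2 fold change -0.98, SE 0.08, adjusted p = 2.81e-15 by edgeR). Gm26728, a non-coding transcript on the opposite strand, shares 218 bp with exons of *Cd9* and was lower too, at 345 and 381 counts against 253 and 205.

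Of the marginal zone markers, *Cr2* and *Cd1d1* were lower and *Mzb1* did not differ beyond the spread between libraries. *Cr2* encodes complement receptors CD21 and CD35, which in the mouse come from 1 gene by splicing and lower the threshold for B cell activation by complement-coated antigen. Its position is chr1:195136811-195176716, minus strand. The control libraries held 304 and 277 counts and the knockout libraries 17 and 26, which is 40.2 ± 3.29 against 3.11 ± 1.06 CPM (mean ± SD, n = 2). The NSD1 B KO level was 7.74% of that in NSD1 B WT, the lowest share among the 6 markers counted in every library (log2 fold change -3.69, SE 0.22, adjusted p = 3.40e-20 by edgeR). The NSD1 B KO libraries differed from each other by 0.71 on the log2 scale, and with each library left out in turn the change lay between -4.07 and -3.38. The neighbouring *Cr1l*, which encodes the complement regulator Crry and lies 5225 bp from *Cr2*, went the other way, from 1215 and 1264 counts to 2199 and 2050 (log2 fold change 0.83, SE 0.08, adjusted p = 5.91e-13 by edgeR). No 100-base stretch is shared between the annotated transcripts of *Cr2* and any other gene.

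*Cd1d1* encodes CD1d, which presents lipid antigens to NKT cells and is most abundant on marginal zone cells. Its position is chr3:86995834-86999441, minus strand. It had 35 and 54 counts in NSD1 B WT, or 6.14 ± 1.76 CPM (mean ± SD, n = 2), and 0 in both NSD1 B KO libraries, and was at least 28.6-fold lower. Both NSD1 B WT libraries were above the limit of detection of NSD1 B KO, although they differed from each other by 0.59 on the log2 scale. A close copy, *Cd1d2*, holds 10.5% of the 100-base stretches of *Cd1d1* transcripts, so reads there could be split or dropped, and *Cd1d2* itself was at 0 in all 4 libraries.

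*Mzb1*, the gene of an endoplasmic reticulum chaperone of immunoglobulin assembly in marginal zone cells, B1 cells and plasma cells, had 300 and 245 counts against 203 and 254 in the knockouts. This is 37.7 ± 5.99 against 33.0 ± 6.75 CPM (mean ± SD, n = 2). The lower NSD1 B WT library fell between the NSD1 B KO libraries, so the genotypes overlapped. Its log2 fold change was -0.20 (SE 0.14, 95% interval -0.49 to 0.09, adjusted p = 0.208 by edgeR), which leaves room for a moderate decrease and for a small increase. The call rested on single libraries. Without NSD1 B KO replicate 2 *Mzb1* was past the threshold at -0.41 (adjusted p = 0.0141 by edgeR, where the alternatives spanned 0.0141 to 0.990), without NSD1 B WT replicate 1 it was at 0.01, and removing the trend with exon length and GC content gave 0.12. In GENCODE M21 an overlapping gene model on the same strand, listed as Gm50318 in the deposited counts and at 0 there, shares 695 of the 1215 bp of *Mzb1* exons. Reads in that part fit both models, so the count of *Mzb1* may cover only the rest of the gene.

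The follicular marker *Fcer2a* had the largest bound of the 10. It encodes CD23, the low-affinity IgE receptor, which follicular and later transitional cells carry and B1 and marginal zone cells lack or carry at a low level. The gene occupies chr8:3681737-3694175 on the minus strand, with 12 exons in its principal transcript. Its counts were 134 and 172 for NSD1 B WT, or 18.8 and 23.5 CPM, and 0 in both NSD1 B KO libraries, and was at least 98.2-fold lower. No 100-base stretch of *Fcer2a* is shared with another gene. Per kilobase of exon, *Fcer2a* in NSD1 B WT stood at the 63.4th percentile of coding genes with a count, so it was not among the scarce transcripts there.

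The transitional markers went in opposite directions. *Cd24a* encodes CD24, a small anchored sialoglycoprotein that is high on immature and transitional B cells and also on red cell precursors. Unlike the other markers it is on the plus strand, at chr10:43578284-43584265. Counts were 5152 and 5010 for NSD1 B WT against 4013 and 3401 for NSD1 B KO, at 703 ± 25.2 against 532 ± 36.9 CPM (mean ± SD, n = 2). NSD1 B KO stood at 75.6% of NSD1 B WT without overlap (log2 fold change -0.40, SE 0.08, adjusted p = 7.48e-06 by edgeR). This was the smallest change among the 9 past the threshold.

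*Cd93* encodes a C-type lectin receptor that defines transitional B cells by the AA4.1 antibody and is also found on monocytes and endothelium. Its 2 exons span chr2:148436640-148443563, minus strand. It was at 0 in both NSD1 B WT libraries and had 41 and 26 counts in NSD1 B KO, or 4.78 ± 1.30 CPM (mean ± SD, n = 2), and was at least 23.2-fold higher. The NSD1 B KO libraries were both above the limit for NSD1 B WT, and replicate 2 stood at -0.56 relative to replicate 1 on the log2 scale.

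**Figure D2:**
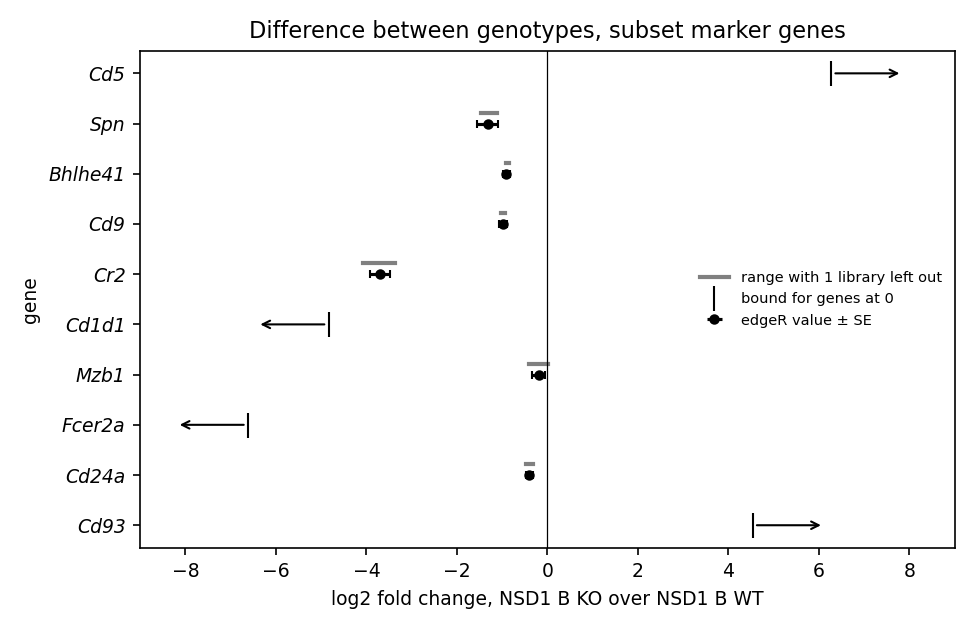
Log2 fold change of each marker in NSD1 B KO over NSD1 B WT, with the edgeR value and its SE as a point with a bar, the range over leaving out 1 library at a time as a grey line, and for the 4 genes with 0 counts in a genotype the bound as a tick with an arrow. The grey line reaches 0 for *Mzb1* alone, and *Cr2* has the largest change among the genes with a point, at -3.69.

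Genes at 0 in a genotype were counted by level. Tested genes were split into 4 bins of nearly equal number by mean CPM over the 4 libraries, so 0 counts in a genotype themselves lower the mean of a gene and can move it down a bin, as for *Cd5*, *Cd1d1* and *Fcer2a*. In the lowest bin, from 0.726 to 5.06 CPM, 50% of 2915 genes were at 0 in a genotype, and *Cd1d1* and *Cd93* belong there. In the next bin, up to 15.4 CPM, the share was 21.8%, and *Cd5*, *Spn* and *Fcer2a* belong there. It was 3.67% in the third, with *Cr2* and *Mzb1*, and 0.103% in the highest, with *Bhlhe41*, *Cd9* and *Cd24a*. The share past the threshold was between 74% and 80.1% in each bin.

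Levels of different genes were compared per kilobase of exon. In NSD1 B WT the order was *Cd24a* (273 ± 9.77 CPM per kb, mean ± SD, n = 2), *Cd9* (175 ± 0.198), *Bhlhe41* (65.6 ± 2.20), *Mzb1* (31.1 ± 4.93), *Fcer2a* (6.84 ± 1.09), *Cr2* (4.96 ± 0.405), *Spn* (4.12 ± 0.707) and *Cd1d1* (2.39 ± 0.685), with *Cd5* and *Cd93* at 0. By these values, neighbours in this order differed by more than the sum of their SDs except *Cr2* and *Spn*, whose order is not settled. The level of *Mzb1* was taken over all its exon bases, part of which may not have been counted, so it may be too low. The order of *Mzb1* and *Bhlhe41* is therefore not settled in either genotype. In NSD1 B KO the same 4 genes led, in the same order when full exon lengths were used, at 206 ± 14.3, 88.6 ± 3.84, 35.0 ± 0.570 and 27.1 ± 5.56 CPM per kb. *Cd5* followed at 3.25 ± 0.196, then *Spn* at 1.65 ± 0.143, *Cd93* at 0.716 ± 0.194 and *Cr2* at 0.384 ± 0.131, with *Cd1d1* and *Fcer2a* at 0. All neighbours there differed by more than the sum of their SDs, *Cd93* and *Cr2* only just. Among coding genes with a count, *Cr2* moved from the 56.7th percentile in NSD1 B WT to the 17.6th in NSD1 B KO, and *Cd24a* from the 97.6th to the 96.7th.

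The bases before the transcription start are shown for *Cd5*, *Cr2* and *Fcer2a*, the genes with the largest changes that have an entry in the promoter table of RefSeq (GRCm38.p6), which holds 6 of the 10 genes. Each run is the 250 bases upstream of the most distal listed start, printed 5′ to 3′ from the minus strand. They span chr19:10738975-10739224, chr1:195176720-195176969 and chr8:3694175-3694424. Capitals mark matches on either strand to any of 4 motifs. The TATA box was searched as TATAAA. The E-box, which factors such as Bhlhe41 bind, was searched as CACGTG. The STAT motif was searched as TTCNNNGAA. The motif of RBPJ, which acts in Notch2 signals of marginal zone cells, was searched as TGGGAA.
Cd5: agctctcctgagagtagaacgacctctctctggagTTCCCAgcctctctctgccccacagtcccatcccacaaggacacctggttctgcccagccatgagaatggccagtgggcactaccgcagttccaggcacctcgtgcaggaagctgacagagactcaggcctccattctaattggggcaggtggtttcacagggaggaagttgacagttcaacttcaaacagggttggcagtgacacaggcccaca
Cr2: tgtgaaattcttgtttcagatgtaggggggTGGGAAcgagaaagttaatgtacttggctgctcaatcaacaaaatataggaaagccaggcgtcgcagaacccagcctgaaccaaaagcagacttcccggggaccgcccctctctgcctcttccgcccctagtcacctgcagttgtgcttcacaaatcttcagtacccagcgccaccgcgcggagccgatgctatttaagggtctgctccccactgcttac
Fcer2a: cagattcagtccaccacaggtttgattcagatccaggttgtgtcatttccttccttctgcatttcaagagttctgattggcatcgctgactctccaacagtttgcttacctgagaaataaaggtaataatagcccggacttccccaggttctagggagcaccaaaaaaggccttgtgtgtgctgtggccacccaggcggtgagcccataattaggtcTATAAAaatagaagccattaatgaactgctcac
*Fcer2a* holds TATAAA beginning 33 bases before the start, a match found in 12.4% of 32841 promoters of this length. *Cd5* and *Cr2* each hold TGGGAA, on opposite strands, beginning 215 and 220 bases before the start, as do 21.6% of promoters. CACGTG, present in 6.02% of promoters, was found in none of the 3, and TTCNNNGAA, present in 7.02%, in none either. Of the 6 promoters searched, *Bhlhe41* alone held CACGTG, 153 bases before its own start. These matches are descriptions of letters and were not tested for use.

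Other genes of the same subsets were read from lists that share no gene with the 10. Of 12 further B1 genes, 11 were tested, 5 were higher and 2 lower, with a median log2 fold change of 0.23. Those past the threshold with the highest CPM were *Rap1b*, a small GTPase of integrin activation, *Ptpn22*, a phosphatase of antigen receptor signalling, and *Itgam*, the CD11b integrin chain of cavity B1 cells and myeloid cells. *Rap1b* went from 312 ± 3.56 to 1329 ± 30.2 CPM and *Ptpn22* from 133 ± 4.11 to 207 ± 5.27 CPM (mean ± SD, n = 2), while *Itgam* fell from 76.1 ± 11.3 to 43.8 ± 8.28 CPM.

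Of 10 further marginal zone genes, 8 were tested, 2 were higher and 3 lower, with a median of -0.10. *Cd36*, a scavenger receptor, was higher, at 72.7 ± 3.13 CPM against 113 ± 2.86 CPM. *Fcrl5*, an Fc receptor-like protein, was lower, at 65.7 ± 1.45 CPM against 23.9 ± 1.14 CPM. *Tlr3*, a sensor of double-stranded RNA, had 148 and 140 control counts and 0 in both NSD1 B KO libraries and was at least 92.5-fold lower. *S1pr3* was at 0 in all 4 libraries.

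All 8 further follicular genes were tested, and 4 were higher and 1 lower, with a median of 0.38. *Ighd*, which encodes the IgD heavy chain, was higher, at 351 ± 7.95 CPM against 556 ± 17.0 CPM. *Fcmr*, the IgM Fc receptor, was lower, at 345 ± 2.37 CPM against 246 ± 22.8 CPM. *Fcer2a* thus changed in the other direction from *Ighd*, and in the same direction as *Fcmr*. Of 8 further transitional genes only 2 could be tested and both were higher. *Vpreb3*, a surrogate light chain relative, went from 21.2 ± 1.52 to 87.8 ± 0.520 CPM and *Bach2*, a repressor, from 22.9 ± 3.74 to 41.5 ± 0.667 CPM. The other 6, the early B lineage genes *Sox4*, *Rag1*, *Rag2*, *Dntt*, *Vpreb1* and *Igll1*, were at 0 in all 4 libraries.

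**Figure D3:**
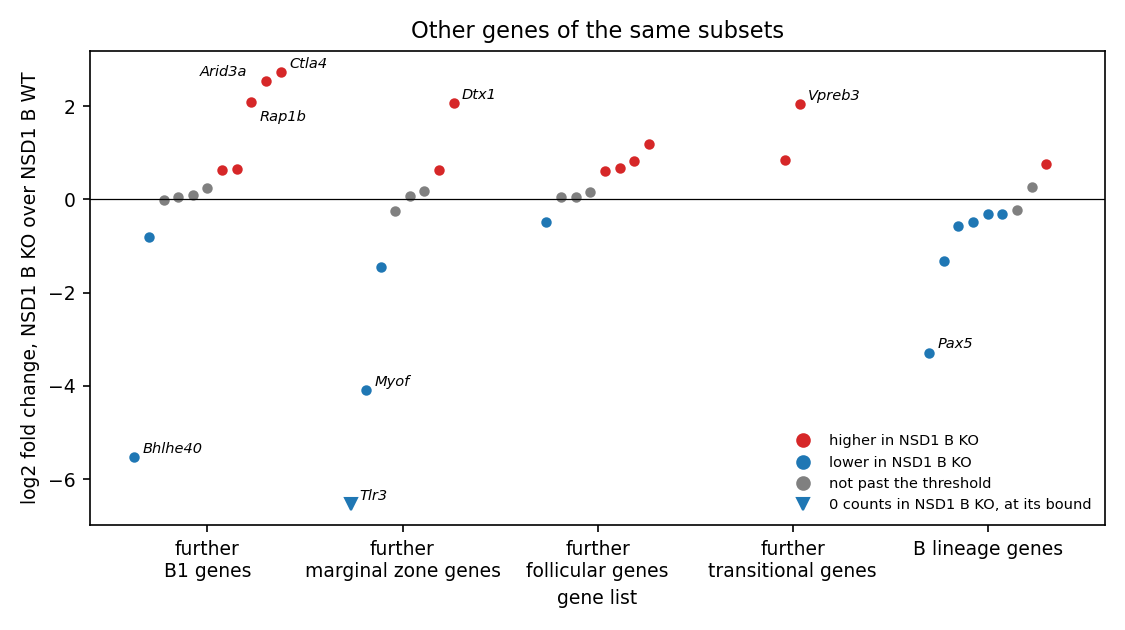
Log2 fold change in NSD1 B KO over NSD1 B WT of the tested genes of 5 other lists, 1 point per gene, red where higher, blue where lower, grey where not past the threshold, and a triangle at its bound for a gene with 0 counts in NSD1 B KO. Each B cell subset list with more than 2 tested genes holds points on both sides of 0, and *Bhlhe40* and *Tlr3* lie lowest.

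Genes of the B lineage as a whole were present in all 4 libraries. Of 9, 1 was higher and 6 lower, with a median log2 fold change of -0.32. *Ms4a1*, the gene of CD20, fell from 2747 ± 32.7 to 1845 ± 122 CPM, *Cd79a*, a chain of the B cell receptor and the locus of the Cre driver, from 14544 and 14192 counts to 5831 and 5166, and *Ptprc*, which encodes B220, from 831 ± 1.14 to 590 ± 24.2 CPM (mean ± SD, n = 2).

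Several of the 10 markers are used by cells outside the B lineage, so markers of those cells were read beside them. The methods state that the purity of the B220+ sort was checked and that only highly pure cells went into the libraries. For *Cd5* and *Spn*, the summed level of 10 T cell genes was 63.1 to 64.2 CPM in the controls and 59.9 to 65.2 CPM in the knockouts, with *Cd4*, *Cd8a* and *Cd28* at 0 in all 4 libraries. Of the 5 tested, 2 were higher and 3 lower. *Trac* had the highest CPM of the list in NSD1 B WT, at 27.4, and *Cd3g* in NSD1 B KO, at 35.4. For *Cd93*, *Spn* and *Cd1d1*, 8 genes of other dendritic cells and macrophages summed to 4558 to 4643 CPM in the controls and 5764 to 6128 CPM in the knockouts. Most of this was *Lyz2*, with *Itgax* at 0 throughout, and of 6 tested 5 were higher and 1 lower. For *Cd24a*, 6 erythroid genes summed to 35.6 to 39.6 CPM in the controls and 1690 to 1944 CPM in the knockouts. All 5 tested were higher, and *Hba-a1* had the highest level. *Cd24a* itself was lower in NSD1 B KO.

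For *Cd9*, the platelet gene *Pf4* was higher, and the other 4 of 5 platelet and megakaryocyte genes (*Ppbp*, *Gp9*, *Itga2b* and *Gp1bb*) were at 0 in all libraries. That list summed to 153.9 to 166.9 CPM in the controls and 223.2 to 231.6 CPM in the knockouts. For *Mzb1*, 6 plasma cell genes, led by *Jchain*, summed to 267 to 273 CPM in the controls and 229.8 to 230.7 CPM in the knockouts, with 2 higher and 2 lower of 4 tested and *Sdc1* and *Tnfrsf17* at 0. In 6 genes of plasmacytoid dendritic cells, which carry B220, *Siglech*, *Klk1* and *Pacsin1* were at 0, both tested genes were higher, and the sum, led by *Tcf4*, was 140.6 to 141 CPM against 212 to 219 CPM. Nearly all of that sum came from the 2 tested genes. For *Cr2* and *Cd93*, the 6 endothelial and follicular dendritic cell genes, led by *Fcgr2b*, had 0 of 2 tested past the threshold by edgeR, of which 1, *Pecam1*, had an unadjusted p of 0.0218 with a fold change under 1.2, and *Cdh5*, *Kdr* and *Mfge8* were at 0. Their sums were 266 to 286 CPM against 286 to 310 CPM. Of this, *Fcgr2b* alone was 203 ± 9.16 CPM in the controls and 212 ± 9.42 CPM in the knockouts (mean ± SD, n = 2). These sums therefore rest mainly on 1 gene and say little about the rest of the list. The sums of 5 NK cell genes, led by *Nkg7*, were 55.8 to 59.6 CPM against 92 to 92.9 CPM, with 2 higher and 1 lower of 3 tested and *Ncr1* and *Gzma* at 0. Those of 6 neutrophil genes were 3.83 to 5.46 CPM against 1.81 to 1.93 CPM. The NSD1 B WT sums were *S100a8* alone, at 0 in NSD1 B KO, and the NSD1 B KO sums were *S100a9* alone, at 0 in NSD1 B WT, with 1 higher and 1 lower of 2 tested and *Ly6g*, *Ngp*, *Camp* and *Elane* at 0. The part of such cells in the changes of the 10 markers was not tested.

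**Figure D4:**
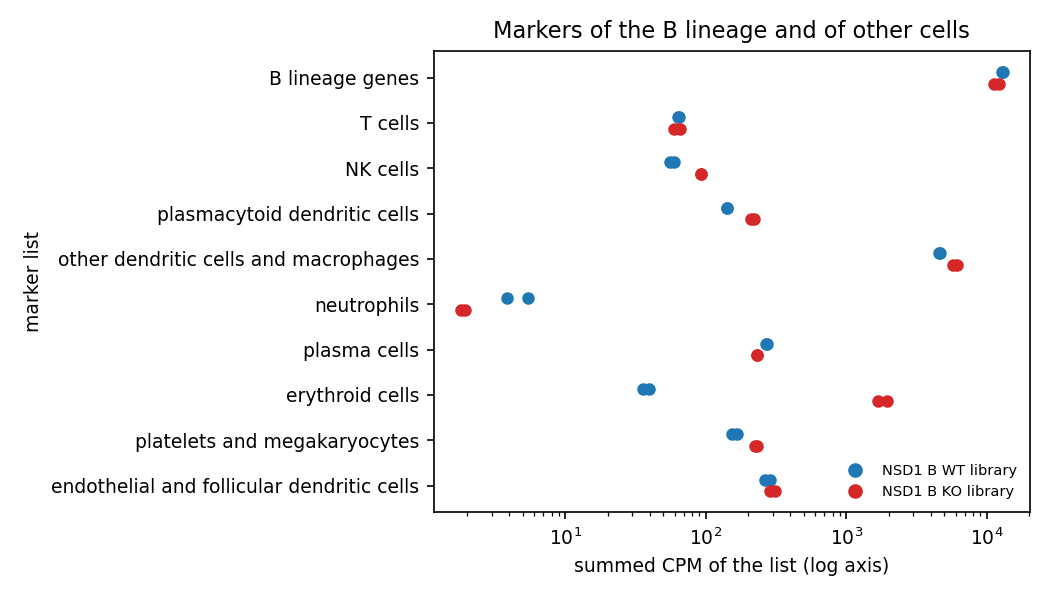
Summed TMM-scaled CPM (log axis) of each marker list for the B lineage and for other cells, 1 point per library, blue for NSD1 B WT and red for NSD1 B KO. The erythroid list is the one that lies farthest apart, at 35.6 to 39.6 CPM in the controls and 1690 to 1944 CPM in the knockouts, and the T cell sums overlap, as do those of endothelial and follicular dendritic cells. The endothelial and follicular dendritic cell sums are mainly *Fcgr2b*.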

How the data were processed

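Splenic cells positive for B220 were sorted, and 4 libraries were sequenced as paired-end reads. The authors deposited raw counts of reads, with no normalization, for each gene in each library. Per the labels and the study's methods, reads were mapped to mm10 with Bowtie2 and FPKM came from Cufflinks. FPKM was not used here. How reads were counted (program, strand, annotation) is not given in the sources used here. Of 55401 identifiers, 99.53% matched GENCODE M21 (GRCm38), 9 of the 10 markers with the same version.

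Lines naming no gene (reads on no feature, 44.28% to 44.55%, ambiguous, 2.215% to 2.41%, and not unique, 11.2% to 13.24%) stayed out. Counts were scaled by TMM and tested across all genes with edgeR 4.0.16 (R 4.3.3), quasi-likelihood, filterByExpr (minimum count 10, minimum total 15) and Benjamini-Hochberg adjustment. SE is the log2 fold change divided by the square root of F. Both thresholds come from the study's methods, applied to adjusted p. With 2 libraries against 2, no exact rank or permutation test of 1 gene can reach 0.05, so none was made. Mean chi-square per gene within a genotype was 2.99 and 3.86, above counting error alone, so no library was a copy.

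Genes at 0 in a genotype got a bound against 3 counts over its libraries. Such limits cover counting error only. Alternatives used DESeq2 1.42.0 and limma 3.58.1 (voom), other scalings, filters and thresholds, libraries left out, the replicate block and a loess trend (span 0.5). The procedure was also run on simulated data. Far fewer genes were changed there than are past the threshold here, so that run does not show how it performs in this setting. The genes named are the 10 markers, *Nsd1*, close copies and overlapping genes, the 3 genes past the threshold with the highest mean CPM of each subset list, and of each list of other cells the highest gene and those at 0. Of the genes this rule selects, 2 are not reported here. *Pecam1*, *Trac*, *S100a9* and the genes beside the markers were named after their values were seen. Markers and lists were chosen with earlier results of these data known.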

Additional observations from a re-analysis of the deposited data

How the results depend on the processing

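Of the 10 markers, 9 kept their direction and their side of the threshold in the log2 fold change under every refit that could test them. *Mzb1* turned to positive values without NSD1 B WT replicate 1 (0.0074), after removal of the trend with exon length and GC content (0.124) and after that removal combined with the replicate block (0.123), and was past the threshold without NSD1 B KO replicate 2 (-0.413). With at least 1 CPM required in all 4 libraries, 0 markers were higher, against 2, because *Cd5* and *Cd93* (0 in NSD1 B WT) leave the test, as do *Cd1d1* and *Fcer2a*, leaving 5 lower. Over all genes that filter gave 2848 higher and 2982 lower. With 1 library left out in turn, 2 markers were higher each time and 7 to 8 lower. Under stricter thresholds (adjusted p 1e-05, log2 fold change 0.5 in size) 2 were higher and 6 lower, since *Cd24a* is smaller than that. Over all 11657 tested genes those thresholds gave 3199 higher and 3468 lower. Allowing 1 count per library left the number of markers at 0 in a genotype at 4.

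The replicate numbers were also used as a block. Deviations of same-numbered libraries correlated at 0.0861 over 9116 genes, and the labels tie the numbers to no mouse, litter or day. With the replicate block, 2 markers were higher and 7 lower, as without it. Over all genes the block left 4254 higher and 4706 lower, against 4324 and 4795. Depth limits a gene at 0 to about 0.21 CPM, and the lone library of a genotype, where 1 was left out, was assumed to vary like the others.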

Other observations

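The nearest tested coding genes on either side of the 9 markers past the threshold were read as well. Of 17 such neighbours, 9 were past the threshold in the direction of their marker, 4 in the other direction and 4 were not past it. Among all tested genes 78.2% were past the threshold, 37.1% higher and 41.1% lower, so the share of neighbours past it is near that of all genes, and whether neighbours share their marker's direction was not tested. *Vps37c*, which encodes a sorting subunit of the ESCRT machinery and lies 2489 bp from *Cd5*, had the same pattern as *Cd5*, with no count in the controls against 62 and 51 in the knockouts. *Tmem109*, on the other side of *Cd5*, went the other way, with 261 and 218 counts against 73 and 91. *Trappc5*, 482 bp from *Fcer2a*, was lower but well counted, at 651 and 538 counts against 326 and 276.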
